A study of Mus musculus with 6 samples.

Results

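Transcripts of 10 genes of transforming growth factor beta (TGF-beta) signalling were followed in adult mouse left ventricles exposed to caffeine in utero. They were taken by symbol from the 43629 genes counted in each heart: the ligands Tgfb1, Tgfb2 and Tgfb3, the receptors Tgfbr1, Tgfbr2 and Tgfbr3, the bone morphogenetic protein (BMP) ligand Bmp4, and the modulators Bambi, Rgma and Fstl1. All 10 were found and all 10 passed the filter on low counts, beside 13092 genes tested in all. In the fit used here, none was called differentially expressed at the thresholds of the study, although the study itself called Bambi, Fstl1 and Rgma. Bambi, Fstl1 and Tgfb2 were higher in every caffeine-treated heart than in every vehicle-treated heart. Their fitted folds were 1.5 (rounded up, just below the study's threshold of 1.5), 1.46 and 1.33. With no scaling other than library size, the hearts of Bambi and Tgfb2 overlapped. Rgma and Tgfbr3 were lower in every caffeine-treated heart, at 0.72 and 0.79 of the vehicle level.

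TGF-beta ligands are secreted in a latent form, and once released they bring a type II receptor (Tgfbr2) and a type I receptor (Tgfbr1) together, which phosphorylates SMAD transcription factors. Betaglycan, the product of Tgfbr3, is a co-receptor that binds ligand without a kinase domain of its own. BMPs use related receptors and other SMADs, and both branches are set by secreted or membrane-bound modulators. In the adult heart the pathway is best known for driving fibroblasts to deposit matrix.

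All hearts were left ventricles of 1-year-old males of the outbred CD-1 strain. For 3 of them the dam had received normal saline (vehicle) and for the other 3 it had received 20 mg/kg caffeine, injected once a day into the peritoneum from embryonic day 6.5 to 9.5, although a further field of the labels ends the exposure at day 10.5. The caffeine was given to the dams alone, the adult hearts were not exposed again, and which dam each heart came from is not stated, so that the p-values take the hearts as independent. Total counts ran from 7613011 to 10483101 per heart, and the caffeine-treated hearts held the 3 lowest totals. The smallest level that 3 counts can show was between 0.286 and 0.394 CPM (counts scaled to the library total), for counting error only. Levels are given in CPM scaled by TMM factors, and differences as log2 fold changes of caffeine over vehicle from edgeR's quasi-likelihood test. Genes were called at a Benjamini-Hochberg adjusted p below 0.05 over all tested genes together with a fold change above 1.5. Bambi, Fstl1 and Rgma stand in the study's own list of differentially expressed genes, which was drawn from these same hearts, so their directions are not independent evidence.

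The markers of the tissue were present, and the atrial markers Myl7 and Sln were near 0. The 6 cardiomyocyte markers summed to 35722.9 to 43795.4 CPM in vehicle and 33683.6 to 36847.3 CPM in caffeine, and the treatments overlapped. Of their log2 fold changes 1 was positive and 5 were negative, with a median of −0.09 and no call. Myl7 and Sln had at most 2 counts and 1 count in any heart. A further atrial marker, Myl4, had between 5 and 18 counts per heart. The sum of the 4 atrial markers was nonetheless higher in every caffeine-treated heart (267.1 to 435.1 CPM against 53.3 to 181.7 CPM), carried by the natriuretic peptide gene Nppa. Summed levels of endothelial markers (589.2 to 673.2 CPM in vehicle, 598.4 to 646.5 in caffeine) and mural cell markers (846.3 to 1002.9 and 837.9 to 987.9 CPM) overlapped between the treatments. Macrophage markers overlapped as well, from 171.0 to 270.9 CPM in vehicle and from 205.9 to 403.2 CPM in caffeine, and the highest was caffeine replicate 1. All 6 had positive log2 fold changes with a median of 0.41, none was called, and Adgre1 (0.93, edgeR adjusted p = 0.226) and Csf1r (0.34, edgeR adjusted p = 0.608) were higher in every caffeine-treated heart. The part of macrophage content in the differences below was not tested. Blood markers overlapped, from 712.0 to 1332.3 and from 769.5 to 1626.6 CPM. The sum of the 6 fibroblast markers did not overlap. It was 755.4 to 882.9 CPM in the vehicle-treated hearts and 920.4 to 1119.9 CPM in the caffeine-treated hearts. Taken singly, only decorin (Dcn) separated the treatments, and each of the other fibroblast markers overlapped. The log2 fold changes of all 6 were likewise positive, with a median of 0.27 and no call. In RNA of whole tissue, more or fewer cells of a type and more or less RNA per cell cannot be told apart. The 4 adipocyte markers and the 4 skeletal muscle markers were below the filter, with sums of at most 2.1 and 0.8 CPM that were lower in the caffeine-treated hearts.

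Promoter sequence is shown for the paralogous ligands Tgfb1, whose hearts overlapped between the treatments, and Tgfb2, whose hearts did not. With no scaling other than library size the hearts of Tgfb2 overlapped too. Their log2 fold changes were 0.16 (standard error 0.12) for Tgfb1 and 0.41 (standard error 0.14) for Tgfb2. A difference in response between these ligands was not shown, and a link of the motifs to the levels was not tested. The sequences are the 250 bases before the annotated start, from RefSeq on GRCm38.p6, at chr7:25686752-25687001 (plus strand) for Tgfb1 and chr1:186705990-186706239 (minus strand) for Tgfb2, written 5′ to 3′. Capitals mark matches on either strand to the SMAD box CAGAC, the GC-rich SMAD site GGCGCC, the TATA box TATAAA, the AP-1 site TGACTCA and the E-box CACGTG.
Tgfb1: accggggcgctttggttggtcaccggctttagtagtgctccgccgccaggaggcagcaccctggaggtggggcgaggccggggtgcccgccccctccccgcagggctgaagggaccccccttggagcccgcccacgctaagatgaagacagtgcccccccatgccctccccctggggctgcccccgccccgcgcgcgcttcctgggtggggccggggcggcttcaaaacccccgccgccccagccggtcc
Tgfb2: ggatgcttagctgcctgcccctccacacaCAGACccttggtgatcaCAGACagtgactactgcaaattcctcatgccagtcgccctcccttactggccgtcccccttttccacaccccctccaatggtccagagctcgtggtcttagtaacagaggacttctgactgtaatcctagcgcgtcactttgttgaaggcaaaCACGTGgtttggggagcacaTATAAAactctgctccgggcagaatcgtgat
The Tgfb2 sequence held 2 SMAD boxes, 1 E-box and 1 TATA box, none overlapping another, with the TATA box beginning at position −31 from the start. The Tgfb1 sequence held no match to any of the 5 motifs, and its GC content was 75.2% against 53.6% for Tgfb2 and a median of 52.4% over all promoters of the table. Of 32851 promoters of the same length, 42.2% held a SMAD box, 9.59% the GC-rich site, 12.4% a TATA box, 4.46% an AP-1 site and 6.02% an E-box. RefSeq entries matched 6 of the 10 genes. These matches describe letters and not bound sites.

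Per kilobase of exon, Fstl1 was the most abundant of the 10 transcripts, with 20.1 ± 4.29 CPM per kilobase (SD over the 6 hearts) and every heart above every heart of Tgfbr3, the next in order. Tgfbr3 had 10.5, Tgfbr2 8.71, Tgfb1 6.84, Rgma 5.25, Bambi 5.10, Tgfb3 4.96, Tgfbr1 4.62, Bmp4 4.54 and Tgfb2 3.12 CPM per kilobase. Below Fstl1, the range of each gene over the 6 hearts overlapped with that of the next in order. Compared within the same heart, Tgfbr3 was above Tgfbr2 and Tgfbr2 above Tgfb1 in 6 of 6 hearts, while from Tgfb1 down to Tgfb2 each gene was above the next in only 3 to 5 of them. The order depends on the length used. Scaled to the longest annotated transcript instead of all annotated exons, Tgfb1 had 13.4 CPM per kilobase and ranked 2, while Fstl1 kept rank 1 with 26.1 and Tgfb2 kept rank 10 with 3.53.

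**Figure D1:**
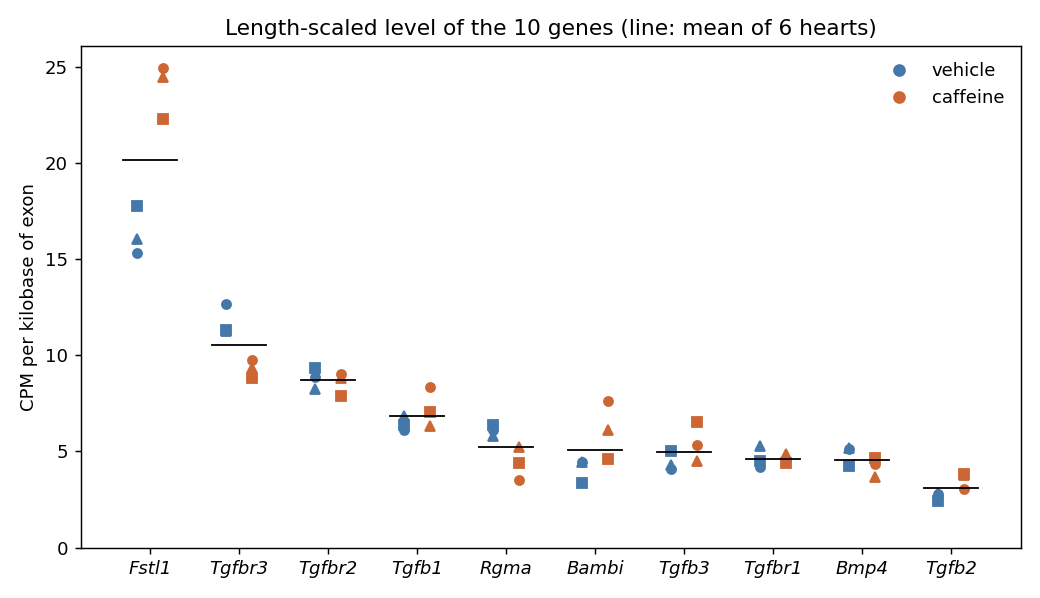
Level of each of the 10 genes in CPM per kilobase of exon (linear axis) in every heart, blue for vehicle and orange for caffeine, with circle, square and triangle for replicates 1, 2 and 3 and a line at the mean of the 6 hearts. Fstl1 lies above all others, from 15.3 to 25.0, and Tgfb2 has the lowest mean at 3.12.

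Of the 10 genes, 0 were called in edgeR's quasi-likelihood test with both thresholds or with the adjusted p alone, against 0.107% (14 of 13092) of all tested genes with either rule. At an unadjusted p below 0.05, 3 of the 10 were higher (Fstl1, Bambi and Tgfb2), against 4.42% of all genes, and 2 were lower (Tgfbr3 and Rgma), against 4.40%. The same genes were those whose hearts did not overlap between the treatments, 3 higher against 7.11% of all genes and 2 lower against 7.12%. The 10 genes were chosen with earlier results of these data known, and Fstl1, Bambi and Rgma stand in the study's own list. The counts above are therefore not independent evidence. The median log2 fold change of the 10 was 0.07, and that of all tested genes was 0.00. With DESeq2, with limma-voom and with edgeR's exact test the number called was also 0, against 0.512%, 0.107% and 0.726% of all genes. In an exact permutation test of the level of a single gene, 3 hearts against 3 cannot give a two-sided p below 0.1, and these 5 genes each gave 0.1.

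**Figure D2:**
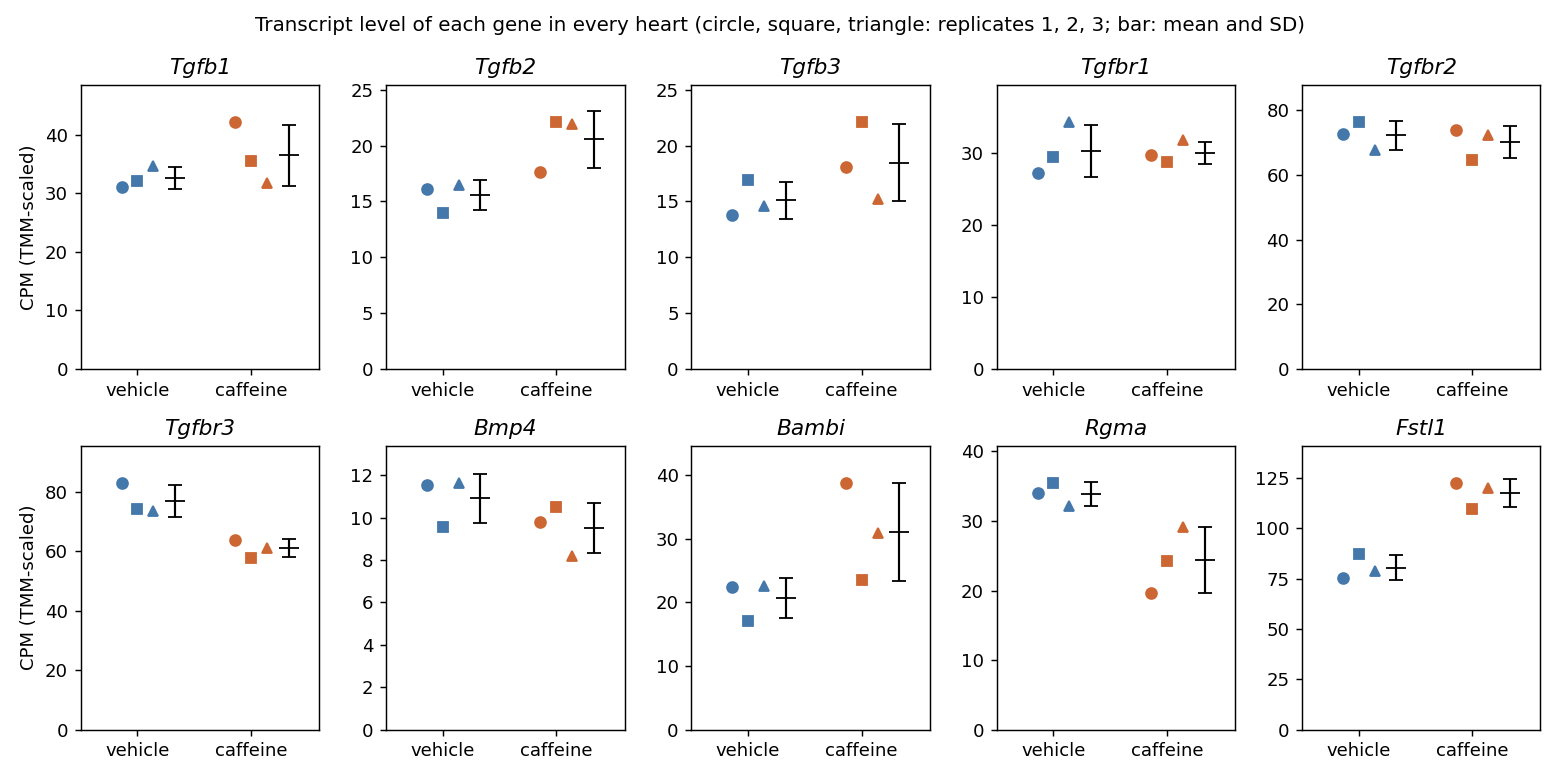
TMM-scaled CPM of each gene in every heart, 1 panel per gene with an axis from 0, blue for vehicle and orange for caffeine, with circle, square and triangle for replicates 1, 2 and 3 and the mean ± SD (n = 3) beside them. The treatments separate for Fstl1, Bambi, Tgfb2, Rgma and Tgfbr3, with the widest gap for Fstl1 (22.2 CPM) and narrow ones for Bambi (0.99 CPM) and Tgfb2 (1.13 CPM).

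Fstl1, follistatin-like 1, is a secreted glycoprotein that binds TGF-beta family ligands and is made in the heart by several cell types. The gene (ENSMUSG00000022816) lies on chromosome 16 of GRCm38 from 37776873 to 37836514 on the plus strand and had between 770 and 1025 counts per heart. It was at 75.2, 87.2 and 78.9 CPM in vehicle replicates 1 to 3 and at 122.6, 109.5 and 120.2 CPM in caffeine replicates 1 to 3. All caffeine-treated hearts were thus higher, and the spread within each treatment was small beside the gap. The means were 80.5 ± 6.16 CPM (SD, n = 3) and 117.4 ± 6.99 CPM (SD, n = 3). The log2 fold change was 0.54 with a standard error of 0.09 and a 95% interval of 0.34 to 0.75, so the interval held values on both sides of the 1.5-fold threshold (0.585). Its edgeR adjusted p was 0.0584, above the threshold. DESeq2 and edgeR's exact test gave adjusted p = 0.000686 and 0.000574 for nearly the same fold changes, below 1.5-fold, and over all alternatives the adjusted p ran from 0.000253 to 0.212.

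The sum of the fibroblast markers was also higher in every caffeine-treated heart. Fstl1 was therefore set against that sum in the same heart. The comparison was chosen after the data were seen and made only for Fstl1, Bambi and Tgfb2. It was 9.40%, 9.88% and 10.45% of that sum in vehicle replicates 1 to 3 and 10.95%, 11.9% and 12.7% in caffeine replicates 1 to 3. The hearts did not overlap, and the difference was 0.26 on the log2 scale, against 0.54 for Fstl1 without this scaling. The exact permutation p was 0.1, the smallest that 3 hearts against 3 can give. Decorin (Dcn) made up between 64.5% and 71.2% of the sum, so the ratio is largely one of Fstl1 to Dcn. The part of fibroblast content in the difference was not tested.

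Bambi, a transmembrane pseudoreceptor that resembles a type I receptor but lacks the kinase domain, dampens BMP, activin and TGF-beta signals. The gene (ENSMUSG00000024232, chromosome 18 from 3507923 to 3516404, plus strand) had between 181 and 277 counts per heart. Its levels were 22.5, 17.1 and 22.5 CPM in vehicle replicates 1 to 3 and 38.8, 23.5 and 31.0 CPM in caffeine replicates 1 to 3. Caffeine replicate 1 was the highest and caffeine replicate 2 lay barely above the vehicle-treated hearts. The means were 20.7 ± 3.09 CPM (SD, n = 3) and 31.1 ± 7.65 CPM (SD, n = 3), a log2 fold change of 0.58 (standard error 0.18, 95% interval 0.18 to 0.98, edgeR adjusted p = 0.332). With no scaling other than library size the hearts of the treatments overlapped and the log2 fold change was 0.50. Relative to the fibroblast marker sum the hearts also overlapped, with a difference of 0.28 on the log2 scale (exact permutation p = 0.3).

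Rgma, repulsive guidance molecule A, is a membrane-anchored BMP co-receptor that is also known from axon guidance. The gene (ENSMUSG00000070509, chromosome 7 from 73375509 to 73419899, plus strand) had between 140 and 375 counts per heart. It was at 34.0, 35.5 and 32.1 CPM in vehicle replicates 1 to 3 and at 19.6, 24.3 and 29.1 CPM in caffeine replicates 1 to 3. The vehicle-treated hearts lay close together, while the caffeine-treated hearts were all lower and more spread, with caffeine replicate 1 the lowest. The means were 33.9 ± 1.69 CPM (SD, n = 3) and 24.3 ± 4.74 CPM (SD, n = 3), a log2 fold change of −0.47 (standard error 0.14, 95% interval −0.78 to −0.17, edgeR adjusted p = 0.302). Of its exons, 258 bases overlap an antisense gene, and the strand setting of the counting is not stated, so reads from that stretch cannot be assigned. Rgmb, its paralog, was at 21.1 CPM in both treatments, with a log2 fold change of 0.00 (95% interval −0.29 to 0.29).

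Bmp4 (ENSMUSG00000021835, chromosome 14 from 46383520 to 46390669, minus strand), a ligand of the BMP branch, was the least counted of the 10, with between 70 and 118 counts per heart. It was at 11.5, 9.56 and 11.7 CPM in vehicle replicates 1 to 3 and at 9.80, 10.5 and 8.21 CPM in caffeine replicates 1 to 3. The treatments overlapped, and the log2 fold change was −0.20 (standard error 0.16, edgeR adjusted p = 0.783). Its 95% interval of −0.55 to 0.15 held neither a 1.5-fold rise nor a 1.5-fold fall. Leaving out caffeine replicate 3 moved the value to −0.10. Of its exons, 89 bases overlap those of an opposite-strand gene.

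Among the TGF-beta ligands all 3 log2 fold changes were positive, from 0.16 to 0.41, and only Tgfb2 separated the treatments. Tgfb2 (ENSMUSG00000039239, chromosome 1 from 186622792 to 186705989, minus strand), whose promoter is printed above, was at 16.1, 14.01 and 16.5 CPM in vehicle replicates 1 to 3 and at 17.6, 22.1 and 21.9 CPM in caffeine replicates 1 to 3. Every caffeine-treated heart was higher, with caffeine replicate 1 close to the vehicle-treated hearts. Its means were 15.5 ± 1.35 CPM (SD, n = 3) and 20.6 ± 2.53 CPM (SD, n = 3), a log2 fold change of 0.41 (standard error 0.14, 95% interval 0.11 to 0.71, edgeR adjusted p = 0.371). With library size alone the hearts overlapped and the log2 fold change was 0.33. They overlapped as well relative to the fibroblast marker sum, where the difference was 0.11 on the log2 scale (exact permutation p = 0.6). An antisense gene overlaps 124 bases of its exons.

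Tgfb1 (ENSMUSG00000002603, chromosome 7 from 25687002 to 25705077, plus strand), the ligand most studied in fibrosis, was at 31.0, 32.1 and 34.6 CPM in vehicle replicates 1 to 3 and at 42.1, 35.4 and 31.8 CPM in caffeine replicates 1 to 3. Caffeine replicate 1 alone stood clearly above the vehicle-treated hearts. The log2 fold change was 0.16 (standard error 0.12, 95% interval −0.11 to 0.42, edgeR adjusted p = 0.772), and without caffeine replicate 1 it was 0.05. The interval lay below a 1.5-fold rise.

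Tgfb3 (ENSMUSG00000021253, chromosome 12 from 86056745 to 86079041, minus strand) was at 13.8, 16.9 and 14.6 CPM in vehicle replicates 1 to 3 and at 18.1, 22.1 and 15.2 CPM in caffeine replicates 1 to 3. Caffeine replicate 3 lay among the vehicle-treated hearts. The log2 fold change was 0.29 (standard error 0.16, 95% interval −0.06 to 0.64, edgeR adjusted p = 0.649), and 0.14 without caffeine replicate 2. Exons of a gene on the opposite strand cover 163 of its bases.

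The make-up of the ligand transcripts did not separate the treatments. Per kilobase of exon, Tgfb1 made up 47.5 ± 1.42% (SD, n = 3) of the summed ligand level in the vehicle-treated hearts and 44.5 ± 4.88% (SD, n = 3) in the caffeine-treated hearts (exact permutation p = 0.4). Tgfb2 made up 19.8 ± 2.00% and 22.0 ± 3.88% (SD, n = 3, exact permutation p = 0.4), and Tgfb3 32.8 ± 3.07% and 33.5 ± 3.63% (SD, n = 3, exact permutation p = 0.6). Each isoform overlapped between the treatments, so a difference in response among the 3 ligands was not detectable. These are unadjusted p-values of 3 related tests. Scaled to the longest transcript, the share of Tgfb1 was 62.8% in vehicle and 59.8% in caffeine.

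The signalling receptors differed little between the treatments and the co-receptor was lower after caffeine. Tgfbr3 (ENSMUSG00000029287, chromosome 5 from 107106570 to 107289629, minus strand) had between 456 and 850 counts per heart. It was at 83.0, 74.1 and 73.5 CPM in vehicle replicates 1 to 3 and at 63.8, 57.8 and 61.2 CPM in caffeine replicates 1 to 3. All caffeine-treated hearts were lower, with a gap of 9.71 CPM between the treatments. The means were 76.9 ± 5.33 CPM (SD, n = 3) and 60.9 ± 3.03 CPM (SD, n = 3), a log2 fold change of −0.34 (standard error 0.09, 95% interval −0.54 to −0.13, edgeR adjusted p = 0.269). The interval did not reach a 1.5-fold fall.

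Tgfbr1 (ENSMUSG00000007613, chromosome 4 from 47353222 to 47414931, plus strand), the type I kinase, was at 27.3, 29.4 and 34.3 CPM in vehicle replicates 1 to 3 and at 29.7, 28.8 and 31.8 CPM in caffeine replicates 1 to 3. Tgfbr2 (ENSMUSG00000032440, chromosome 9 from 116084293 to 116175360, minus strand), the type II kinase, was at 72.8, 76.4 and 67.6 CPM in vehicle replicates 1 to 3 and at 73.9, 64.7 and 72.4 CPM in caffeine replicates 1 to 3. Both overlapped between the treatments, although for Tgfbr2 caffeine replicate 2 was the lowest heart and vehicle replicate 2 the highest. Their log2 fold changes were −0.01 (95% interval −0.27 to 0.24, edgeR adjusted p = 0.988) and −0.04 (95% interval −0.25 to 0.17, edgeR adjusted p = 0.948), and both took positive values without caffeine replicate 2. Changes of 1.5-fold in either direction lay outside both intervals. As a description, Tgfbr3 held 49.3%, 45.0% and 45.4% of the summed receptor level per kilobase in vehicle replicates 1 to 3. In caffeine replicates 1 to 3 it held 41.8%, 41.8% and 40.6%. Shares of a sum move together: that of Tgfbr2 was higher in every caffeine-treated heart, although its own level overlapped, and that of Tgfbr1 overlapped.

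**Figure D3:**
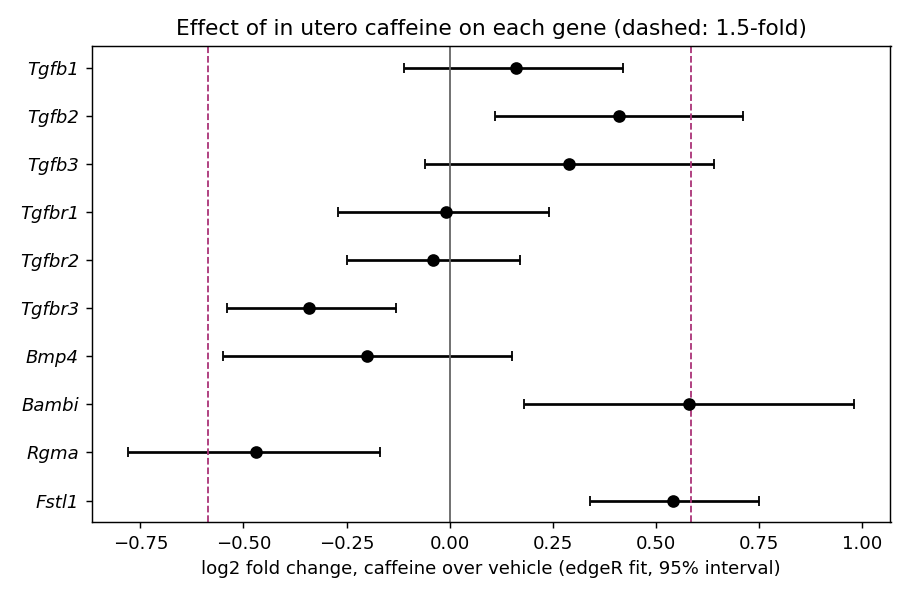
Log2 fold change of caffeine over vehicle for each gene from the edgeR fit to 6 hearts, with 95% intervals, a solid line at 0 and dashed lines at 1.5-fold (0.585). The intervals of Fstl1, Bambi and Tgfb2 lie above 0 and those of Rgma and Tgfbr3 below it, without adjustment for the number of genes. Those of Tgfb1, Tgfbr1, Tgfbr2, Tgfbr3 and Bmp4 lie within the dashed lines.

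The genes around them in the pathway were read from lists of 81 further genes, also chosen with earlier results of these data known. Of these genes, 68 passed the filter. By edgeR's quasi-likelihood test 0 were called, 8 had an unadjusted p below 0.05 with a higher level after caffeine, and 2 with a lower level, where 4.42% and 4.40% of all genes did and 0.107% were called. Of the 68, 6 were higher and 5 lower in every caffeine-treated heart, close to the 7.11% and 7.12% of all genes, and their median log2 fold change was 0.00, as over all genes. DESeq2 called 1 of them (Col3a1), edgeR's exact test 2 (Col3a1 and Postn) and the fit without a filter 3 (Col3a1, Postn and Thbs1), all higher, while limma-voom called 0. These settings called 0.512%, 0.726%, 1.07% and 0.107% of all genes, in the same order.

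The TGF-beta target genes had the highest median of the lists, 0.26 over 13 genes, with 9 positive and 4 negative values and 4 at an unadjusted p below 0.05, all higher, against 4.42% of all genes in that direction. Col3a1, a fibrillar collagen chain, was at 102.8, 136.5 and 83.9 CPM in vehicle replicates 1 to 3 and at 179.7, 147.9 and 207.6 CPM in caffeine replicates 1 to 3, a log2 fold change of 0.73 (standard error 0.17, edgeR adjusted p = 0.189). Postn, periostin, a matricellular protein of activated fibroblasts, differed by 0.68 on the log2 scale (standard error 0.17, edgeR adjusted p = 0.228), and both genes separated the treatments. Several of these targets are fibroblast genes, and Col1a1 stands in the fibroblast marker list too, whose sum was higher in the same hearts. The part of fibroblast content in the levels of these targets was not tested.

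Of the 7 tested BMP target genes 5 were positive and 2 negative, with a median of 0.09. Smad6, an inhibitory SMAD, was at 29.6, 34.4 and 31.1 CPM in vehicle replicates 1 to 3 and at 21.4, 27.8 and 27.7 CPM in caffeine replicates 1 to 3, a log2 fold change of −0.30 (edgeR adjusted p = 0.534). The Id genes, early BMP targets, overlapped between the treatments, with log2 fold changes of 0.16 for Id1, 0.02 for Id2 and 0.23 for Id3. Of the 13 SMADs and their regulators 4 were positive and 9 negative, with a median of −0.05, and the BMP-branch Smad9 (−0.38, edgeR adjusted p = 0.698) and the SMAD corepressor Tgif1 (0.38, named after its value was seen) lay farthest from 0, each with hearts that did not overlap. Smad2, Smad3 and Smad4, which carry the TGF-beta signal, had log2 fold changes of −0.05, −0.25 and −0.01, and of these Smad3 was lower in every caffeine-treated heart (edgeR adjusted p = 0.608).

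Upstream of the receptors, 12 genes of ligand latency and activation had a median of 0.08. Furin, the protease that cleaves TGF-beta and BMP precursors, was at 305.9, 316.0 and 276.0 CPM in vehicle replicates 1 to 3 and at 245.4, 204.9 and 235.2 CPM in caffeine replicates 1 to 3, lower in every caffeine-treated heart (log2 fold change −0.39, standard error 0.10, edgeR adjusted p = 0.213). Thbs1, thrombospondin 1, an activator of latent TGF-beta, had the largest difference of the list with overlapping hearts (0.76, edgeR adjusted p = 0.555). Fbn1, fibrillin 1, which anchors latent complexes in the matrix, had 0.57 (edgeR adjusted p = 0.279) and was higher in every caffeine-treated heart. It was named after its value was seen.

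Of 11 other ligands 6 were tested, 1 positive and 5 negative with a median of −0.26, and all 6 overlapped between the treatments. Bmp6 had a log2 fold change of −0.29 (edgeR adjusted p = 0.611) and Bmp7 −0.65 (edgeR adjusted p = 0.649). The other receptors had a median of −0.12 over 8 tested genes, with the largest difference in the weakly expressed activin receptor Acvr2b (−0.67, edgeR adjusted p = 0.719). Among 11 tested extracellular modulators the median was 0.00, and Fstl3, a further follistatin-related inhibitor of activins, had the smallest p. Fstl3 was at 2.05, 2.74 and 3.24 CPM in vehicle replicates 1 to 3 and at 4.48, 4.18 and 4.10 CPM in caffeine replicates 1 to 3, higher in every caffeine-treated heart (log2 fold change 0.66, standard error 0.25, edgeR adjusted p = 0.446).

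**Figure D4:**
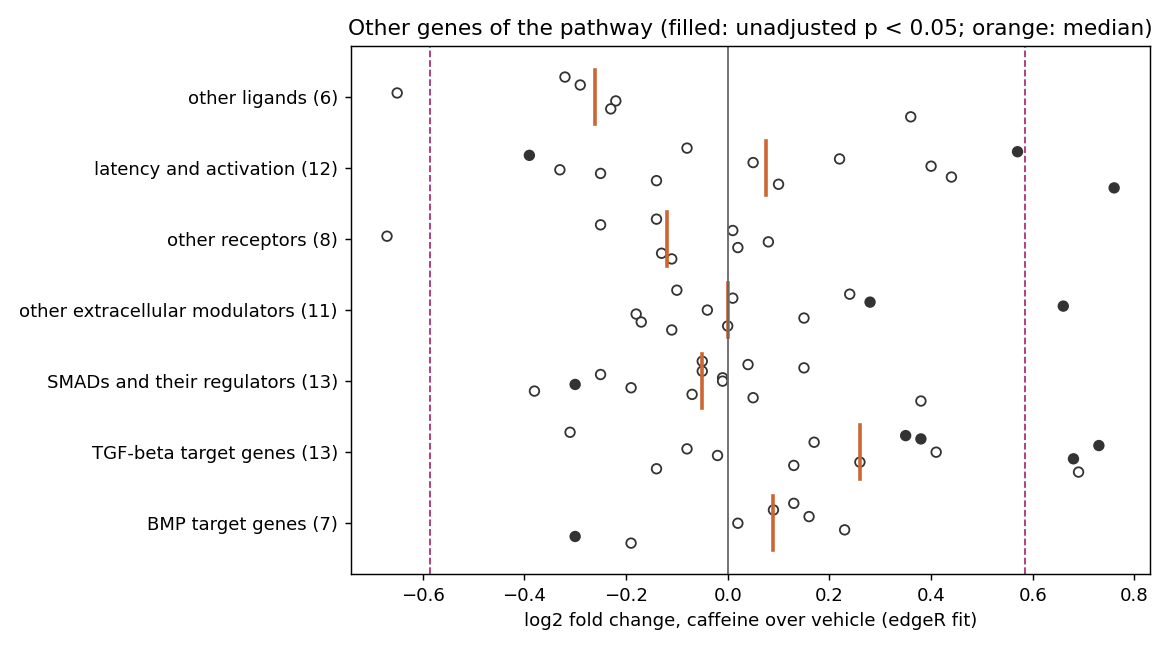
Log2 fold change of caffeine over vehicle (horizontal axis) for the tested genes of 7 pathway lists, with the number of genes in brackets, filled points for an unadjusted p below 0.05, an orange line at each list's median and dashed lines at 1.5-fold. Medians run from −0.26 for the other ligands to 0.26 for the TGF-beta target genes, and a gene may stand in more than 1 list.

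For Fstl1 and Tgfbr3, which had the smallest p-values of the 10, the genes with the most similar pattern over the 6 hearts were sought by the root mean square difference of log2 CPM, each gene centred on its own mean. The nearest to Fstl1 were the predicted genes Gm26917 (0.0768), Gm8203 (0.0802) and Gm24187 (0.0805), the last with at most 14 counts in a heart. Gm26917 was itself among the called genes (log2 fold change 0.63, edgeR adjusted p = 0.0301). The nearest to Tgfbr3 were Nadk2 (0.0357), a mitochondrial NAD kinase, Agpat3 (0.0395), an acyltransferase of phospholipid synthesis, and Mapk1ip1 (0.0414). All 3 were lower in every caffeine-treated heart, which largely follows from choosing them by their likeness to Tgfbr3. None of them was called.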

How the data were processed

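Poly(A) RNA of 6 left ventricles was sequenced by the authors as single-end reads in 1 run, cleaned with FastQC, mapped to mm10 (GRCm38) with Tophat2 and assigned to Ensembl 79 genes with HTSeq, whose versions and strand setting are not given in the sources used here. The files deposited hold raw counts of 43629 genes per heart, neither normalized nor pooled. The study took edgeR genes at a false discovery rate below 0.05 and a fold change above 1.5, without naming the test.

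From these counts, 13092 genes passed filterByExpr (minimum count 10, minimum total 15), were scaled with TMM and were tested in edgeR 4.0.16 (R 4.3.3) by glmQLFTest after glmQLFit, the model holding treatment alone. CPM use the library size after the filter and the TMM factors (0.94 to 1.07). The 95% intervals use the fitted standard error and its degrees of freedom. Exon lengths and positions came from GENCODE release M21 of GRCm38, by Ensembl identifier, and 1167 identifiers had no symbol. No pair of replicates matched within sampling noise (chi-square over degrees of freedom 5.66 to 15.08).

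The 10 genes and all lists were chosen with earlier results of these data known. All 10 are named, and from each pathway list the called genes, the gene with the smallest p and the one with the largest change. Others named for comparison (Rgmb, Postn, Smad2, Smad3, Smad4, Id1, Id2, Id3, Fbn1, Tgif1, Adgre1, Csf1r, Dcn, Myl4 and Nppa) were picked after their values were seen. Alternatives used DESeq2 1.42.0, limma 3.58.1 and other scalings, filters and samples. The fit was tested on counts drawn with known changes, all larger than those of the 10 genes, and with the same dispersion for every gene. That test does not cover changes of the size seen here. Tables and permutation tests used SciPy 1.17.1, NumPy 2.4.6 and pandas 2.3.3 in Python 3.11.15, and plots Matplotlib 3.10.9.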

Additional observations from a re-analysis of the deposited data

How the results depend on the processing

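The number of the 10 genes called stayed at 0 under each alternative tried, and the log2 fold changes kept their direction except for the near-zero receptors: Tgfbr1 took 0.085 without vehicle replicate 3, 0.02 without caffeine replicate 2 and 0.006 after thinning to the smallest total (range over replicates left out −0.083 to 0.085), and Tgfbr2 took 0.001 without vehicle replicate 2 and 0.017 without caffeine replicate 2 (range −0.086 to 0.017). The adjusted p was below 0.05 for Fstl1 with edgeR's exact test, with DESeq2 and with no filter, and for Bambi (0.00505) and Rgma (0.016) with no filter, all below 1.5-fold. Of the pathway genes 2 were called with edgeR's exact test, 1 with DESeq2 and 3 with no filter. Over all genes the 14 calls (11 higher, 3 lower) became 95 with the exact test, 67 with DESeq2 (39 higher, 28 lower), 27 with library size only (12 higher, 15 lower), 240 with no filter and 40 with the replicate block. They ran from 4 to 28 with each replicate left out: 27, 4 and 28 without vehicle replicates 1 to 3, and 8, 22 and 4 without caffeine replicates 1 to 3. The cause was not tested. The share difference of Tgfb3, 0.67 points, was −0.06, −0.37 and −1.41 without vehicle replicate 1, vehicle replicate 3 and caffeine replicate 2, and ran up to 2.43. Those of Tgfb1 (−2.94) and Tgfb2 (2.28) kept their sign but ran from −5.65 without caffeine replicate 1 to −0.90 without caffeine replicate 2, and from 0.32 without caffeine replicate 3 to 4.20 without caffeine replicate 1.

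No pairing of hearts by replicate number was seen over all tested genes, where deviations of hearts with the same number correlated at 0.045, −0.03 and −0.038. Such correlations cannot exclude a pairing that touches only some genes. The replicate block changed no call among the 10 genes (Fstl1 edgeR adjusted p = 0.0831), while over all genes the calls went from 14 to 40. Depth limits Bmp4 most, with as few as 70 counts in a heart.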
